A study of Danio rerio with 24 samples.

Results

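Genes of retinoid metabolism were followed across whole zebrafish larvae exposed to arsenite, uranyl nitrate or both. They were the retinol acyltransferase genes lratb.2, lratb.1 and lrata, the short-chain dehydrogenase/reductase genes dhrs13a.1, dhrs13a.2, dhrs3a and rdh10a, the retinoic acid hydroxylase gene cyp26a1, and the retinol-binding protein gene rbp2a. They are 9 of the 39974 genes in the deposited table and were matched by their NCBI Gene numbers (lratb.2 is 556575). They were selected on values of these same libraries, with lratb.2 picked for its difference between arsenite at 1 µM and vehicle. That difference is given as a description with no test, and the shared vehicle libraries carry part of it into every other comparison with vehicle. The shared libraries of arsenite at 1 µM likewise carry part of it into the other comparisons with that group.

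The larvae were of the wild-type AB strain and were sampled at 5 days after fertilization. From 4 hours after fertilization they were kept in a dilute salt solution (0.3x Danieau's) alone (vehicle), with sodium arsenite at 1 or 10 µM, with uranyl nitrate at 30 or 300 µg/L, or with the lower dose of each together (the mixture). Each of the 6 groups held 4 libraries, each from a pool of 10 larvae (n = 4 for every mean ± SD below). Polyadenylated RNA was sequenced. Values are FPKM, the fragments of a gene scaled to gene length and library size, so that levels of different genes can be set side by side. Reads recovered from these values numbered 15456854 to 22987080 per library, and libraries of 1 group correlated with each other at 0.981 to 0.985 over 36 pairs.

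Vitamin A circulates as retinol and is stored as retinyl ester. Lecithin retinol acyltransferase (LRAT) makes the ester, and in the retinal pigment epithelium the isomerase RPE65 uses that ester as its substrate to rebuild the visual chromophore. In other tissues retinol is oxidised to retinal and then to retinoic acid, a ligand of nuclear receptors. RDH10 carries out the first oxidation in vertebrate embryos, DHRS3 runs it backwards by reducing retinal, and CYP26 enzymes break retinoic acid down. In mammals RBP2 binds retinol inside enterocytes, the absorptive cells of the gut. The dhrs13a proteins belong to the same enzyme superfamily as RDH10 and DHRS3.

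The 3 LRAT genes differed in level and in how they varied. lratb.2 was the most variable of the 9 genes. In the vehicle libraries 1 to 4 its level was 2.71, 10.5, 5.15 and 5.77 FPKM. It was 18.7, 13.3, 11.0 and 14.8 FPKM with 1 µM arsenite, and 16.0, 10.2, 13.4 and 16.3 FPKM with 10 µM arsenite. All 4 libraries of the lower arsenite dose lay above all vehicle libraries, and 1 library of the higher dose fell just under vehicle library 2.

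For lratb.2 the means of the uranyl nitrate doses lay further apart than those of the arsenite doses. The 4 libraries at 30 µg/L held 12.99, 13.9, 10.5 and 12.6 FPKM, and those at 300 µg/L held 10.6, 5.55, 6.65 and 7.87 FPKM. The mixture libraries held 6.63, 5.57, 7.995 and 8.12 FPKM, each below every library of arsenite alone at 1 µM and of uranyl nitrate alone at 30 µg/L, the components of the mixture. The mean of the mixture lay within 1 SD of the vehicle mean, and the mean of each component alone lay above it by more than that. The larvae were sequenced whole, so fewer cells of a type and less RNA per cell cannot be told apart here or in any gene below.

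By group mean the order for lratb.2 was arsenite at 1 µM (14.4 ± 3.20 FPKM), arsenite at 10 µM (14.0 ± 2.83), uranyl nitrate at 30 µg/L (12.5 ± 1.47), uranyl nitrate at 300 µg/L (7.67 ± 2.18), the mixture (7.08 ± 1.21) and vehicle (6.04 ± 3.27). The first 3 groups differed from one another by less than the larger SD of each pair, and so did the last 3. Between these sets the step from 30 to 300 µg/L uranyl nitrate was -0.66 on the log2 scale (SE 0.242, 95% interval -1.17 to -0.16) with 1 pair of libraries overlapping, and it was not called in the limma fit (adjusted p 0.105). With only the compared groups fitted it was called (adjusted p 0.0469), and selection on these libraries keeps that from being an independent test. lratb.2 rested on 37 to 259 reads per library. Its residual SD within groups was 0.370 on the log2 scale, higher than that of 93.5% of the genes tested.

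**Figure D1:**
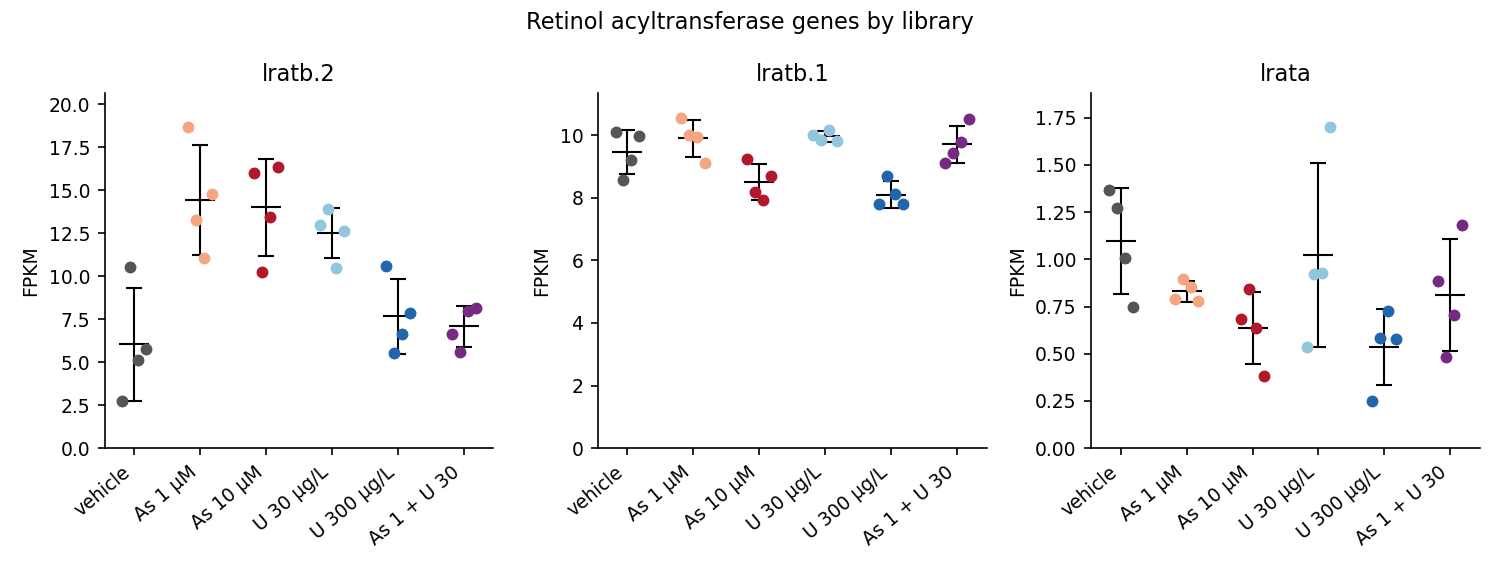
FPKM (vertical axes, starting at 0, with a separate scale per gene) of the 3 retinol acyltransferase genes in each of the 24 libraries, by group. Points are libraries, the horizontal line is the group mean and the bars are 1 SD (n = 4); lratb.2 spans 2.71 to 18.7 FPKM and lratb.1 stays between 7.79 and 10.5.

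All differences below were computed on log2(FPKM + 1) with limma over all genes, with a Benjamini-Hochberg adjustment over 22682 genes and a call at an adjusted p under 0.05. The fold change on this scale understates changes of low genes. Against vehicle, the log2 difference of lratb.2 was 1.23 at 1 µM arsenite (SE 0.242, 95% interval 0.72 to 1.73). At 10 µM arsenite it was 1.19 (SE 0.242, adjusted p 0.0157). At 30 µg/L uranyl nitrate it was 1.05 (SE 0.242, 95% interval 0.55 to 1.55) and was not called, at an adjusted p of 0.328. At 300 µg/L it was 0.38 (adjusted p 0.461) and in the mixture 0.30 (adjusted p 0.719), neither of them called.

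These values depended on single vehicle libraries. Without vehicle library 2, the highest and the deepest of the 4, the difference at 1 µM arsenite was 1.501, and without vehicle library 1, the lowest, it was 0.96. Leaving out 1 library at a time ended the call at 10 µM arsenite in 4 of 8 fits (without vehicle 1 or 3, or 10 µM arsenite 1 or 4; largest adjusted p 0.0632). With only the compared groups fitted, its adjusted p was 0.224.

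The mixture was compared with its components. lratb.2 was lower in the mixture than with arsenite alone by a log2 difference of -0.92 (SE 0.242, 95% interval -1.43 to -0.42) and lower than with uranyl nitrate alone by -0.75 (95% interval -1.25 to -0.24). All 4 mixture libraries lay below all libraries of either component, yet neither difference was called (adjusted p 0.342 and 0.230). The comparison with arsenite alone reuses the 1 µM libraries on which lratb.2 was picked, so it is a description and no test. The departure from additivity, the mixture minus both components plus vehicle, was -1.97 for lratb.2 (SE 0.342, 95% interval -2.68 to -1.26). It includes the difference for which the gene was picked, and so is a description as well. Over the 16 fits that left out 1 library the estimate ran from -2.25 to -1.70.

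The neighbouring gene lratb.1 was steadier. It lies next to lratb.2 on the same chromosome of the GRCz12tu assembly with 0 genes between them, and how the authors' counting assigned reads shared by close copies is not given in the sources used here. Its group means ran from 8.10 ± 0.421 FPKM at 300 µg/L uranyl nitrate to 9.96 ± 0.173 at 30 µg/L, with vehicle at 9.46 ± 0.710. The 4 libraries at 300 µg/L held 7.80, 8.69, 8.12 and 7.79 FPKM and the 4 at 30 µg/L held 10.0, 9.84, 10.2 and 9.80 FPKM. The groups did not overlap, and lratb.1 was lower at the higher dose by -0.27 on the log2 scale (SE 0.0581, adjusted p 0.0114), a call kept in all 8 fits that left out 1 library. The gene was among those selected on these same libraries, so neither the call nor these fits are an independent test. Against vehicle the 300 µg/L group was at -0.20 (adjusted p 0.0775).

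lrata was low throughout, with 10 to 83 reads per library, and 21 of 24 libraries reached the filter level of 0.5 FPKM. Its highest group mean was in vehicle (1.097 ± 0.279 FPKM) and its lowest at 300 µg/L uranyl nitrate (0.535 ± 0.203 FPKM). All 4 libraries at that dose lay below all vehicle libraries, at a log2 difference of -0.45 (SE 0.149, adjusted p 0.119) that was not called.

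The makeup of the LRAT transcripts differed between groups along with lratb.2, which held 34.8 ± 13.3% of the summed FPKM of the 3 genes in vehicle, 56.9 ± 5.21% at 1 µM and 60.0 ± 4.80% at 10 µM arsenite, 40.04 ± 3.06% in the mixture, and 53.1 ± 3.50% at 30 µg/L and 46.4 ± 8.29% at 300 µg/L uranyl nitrate. The summed level was 16.6 ± 2.70 FPKM in vehicle, 25.2 ± 3.44 at 1 µM arsenite and 23.2 ± 3.13 at 10 µM. It was 23.5 ± 1.36 at 30 µg/L and 16.3 ± 1.68 at 300 µg/L uranyl nitrate, and 17.6 ± 1.92 in the mixture. No test was run on these shares and sums.

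Of the short-chain dehydrogenase/reductase genes, dhrs13a.2 was the one that rose. Its vehicle libraries held 29.2, 30.5, 32.4 and 24.7 FPKM. The libraries at 1 µM arsenite held 47.4, 51.2, 41.8 and 57.7 FPKM, those at 10 µM held 46.3, 35.4, 43.3 and 46.1, and those of the mixture held 46.1, 50.4, 44.6 and 55.7. Every library of these 3 groups lay above every vehicle library.

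The rise of dhrs13a.2 was 0.74 on the log2 scale at 1 µM arsenite (SE 0.113, adjusted p 0.00422) and 0.73 in the mixture (SE 0.113, adjusted p 0.00199), and both calls were kept in all 8 fits that left out 1 library. The gene was selected on these same libraries, so neither the calls nor these fits are an independent test of the rise. With only the 2 groups fitted the call at 1 µM was lost (adjusted p 0.147), and the mixture's was kept (0.0416). At 10 µM arsenite the rise was 0.54 (adjusted p 0.0215), a call lost without vehicle 1 or 4 or without library 1, 3 or 4 of that dose (largest adjusted p 0.0969) and with only the compared groups fitted (0.106). Arsenite at 10 µM and at 1 µM were not told apart, at a log2 difference of -0.20 (95% interval -0.44 to 0.03, adjusted p 0.846).

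Uranyl nitrate alone moved dhrs13a.2 less clearly. The libraries at 30 µg/L held 31.9, 33.4, 32.5 and 36.2 FPKM and overlapped with vehicle (log2 difference 0.20, 95% interval -0.04 to 0.43, adjusted p 0.756). Those at 300 µg/L held 38.6, 51.6, 36.5 and 36.6 FPKM, all above vehicle, with library 2 far above the other 3. The rise there was 0.46 (SE 0.113, adjusted p 0.0409), and leaving out 1 library at a time ended this call in 6 of 8 fits, those without vehicle 1, 3 or 4 or library 1, 2 or 4 of that dose (largest adjusted p 0.146). The mixture was higher than uranyl nitrate alone by 0.54 (adjusted p 0.0444, lost in all 8 such fits, at 0.0505 to 0.147) and differed from arsenite alone by -0.00 (95% interval -0.24 to 0.23).

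**Figure D2:**
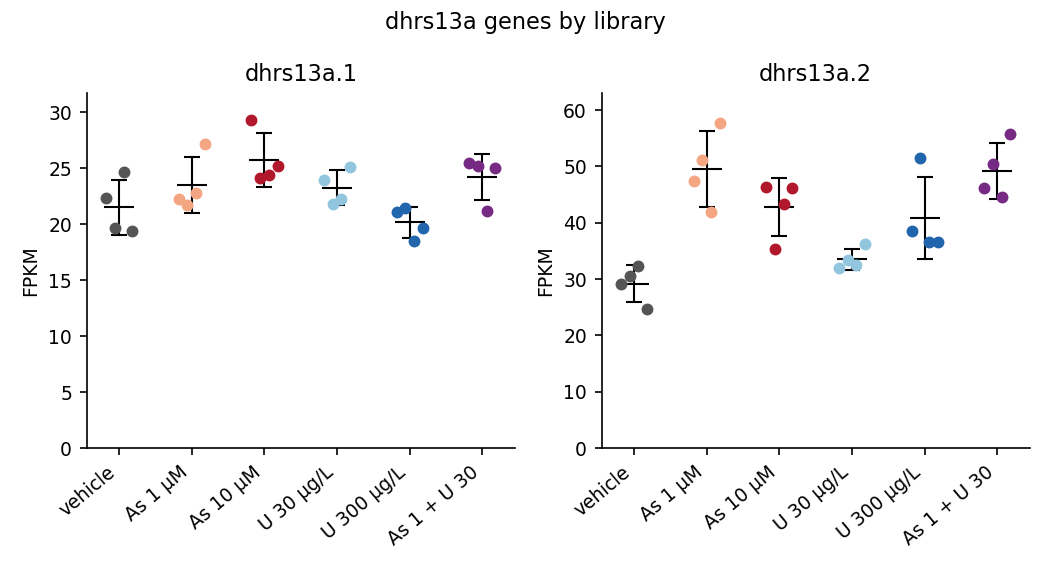
FPKM (vertical axes from 0, a separate scale per gene) of dhrs13a.1 and dhrs13a.2 in each of the 24 libraries, by group. Points are libraries, lines are group means and bars are 1 SD (n = 4); the arsenite and mixture libraries of dhrs13a.2 lie between 35.4 and 57.7 FPKM, above the vehicle range of 24.7 to 32.4, while the groups of dhrs13a.1 lie between 18.5 and 29.3.

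dhrs13a.1, which lies next to dhrs13a.2 with 0 genes between them, was called in none of the 10 comparisons. Its means ran from 20.2 ± 1.36 FPKM at 300 µg/L uranyl nitrate to 25.7 ± 2.43 at 10 µM arsenite, with vehicle at 21.5 ± 2.49. Its largest difference from vehicle was 0.25 at 10 µM arsenite (SE 0.0846, adjusted p 0.235). dhrs13a.2 held 57.6 ± 2.22% of the summed FPKM of both genes in vehicle, 67.8 ± 2.23% at 1 µM arsenite, 62.4 ± 2.44% at 10 µM, 67.0 ± 1.97% in the mixture, and 59.0 ± 1.40% and 66.7 ± 2.76% at the lower and higher uranyl nitrate dose. Within groups the pair nevertheless went together from library to library (Pearson r 0.61 over the deviations of 24 libraries from their group means). Such a correlation also carries whatever the points share, such as depth and reads of close copies.

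Of the genes that convert retinol and retinal in embryos, rdh10a was steady, with a residual SD within groups of 0.0744 on the log2 scale. That of dhrs3a was 0.145, beside 0.124 for dhrs13a.1. The retinal reductase gene dhrs3a had group means of 2.64 ± 0.255 FPKM at 30 µg/L uranyl nitrate to 3.57 ± 0.700 in the mixture, whose 4 libraries at 2.75, 4.26, 3.23 and 4.025 FPKM overlapped with the vehicle range of 2.60 to 3.10. The differences of dhrs3a from vehicle ran from -0.10 to 0.22 on the log2 scale, and the smallest adjusted p was 0.458. The mixture was above 30 µg/L uranyl nitrate by 0.32 (95% interval 0.11 to 0.53, adjusted p 0.226). The retinol dehydrogenase gene rdh10a ran from 7.90 ± 0.367 FPKM in vehicle to 8.60 at both 10 µM arsenite (SD 0.144) and 30 µg/L uranyl nitrate (SD 0.817). All 4 libraries at 10 µM arsenite were above all vehicle libraries, at a log2 difference of 0.11 (95% interval -0.01 to 0.23, adjusted p 0.522). Neither gene was called in any of the 10 comparisons.

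cyp26a1, whose product clears retinoic acid and whose transcription retinoic acid raises, was called between the doses of uranyl nitrate. The libraries at 30 µg/L held 3.63, 3.98, 4.60 and 4.46 FPKM and those at 300 µg/L held 2.80, 1.85, 2.88 and 2.61 FPKM. The groups did not overlap. The higher dose was lower by -0.55 on the log2 scale (SE 0.145, adjusted p 0.0272), a call lost without library 3 or 4 at 30 µg/L or library 2 or 4 at 300 µg/L (largest adjusted p 0.0914). As for lratb.1, selection on these same libraries keeps this call from being an independent test. The vehicle libraries, at 2.68 to 4.30 FPKM, lay between and overlapped with both groups, and no exposure was called against vehicle (smallest adjusted p 0.316).

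rbp2a was the most abundant of the 9 genes. Its vehicle libraries held 113, 56.9, 69.7 and 90.7 FPKM, the widest spread of any of its groups. The libraries at 300 µg/L uranyl nitrate held 52.0, 61.2, 53.8 and 60.7 FPKM, below all 4 libraries at 30 µg/L (70.8 to 84.7 FPKM). In the fit over all 24 libraries neither that step (log2 difference -0.43, adjusted p 0.132) nor the difference of 300 µg/L from vehicle (-0.49, SE 0.165, adjusted p 0.126) was called. With only the compared groups fitted the step was called (adjusted p 0.0147), which selection on these same libraries keeps from being an independent test. Without vehicle library 2, the lowest of the vehicle libraries in rbp2a, the difference from vehicle was -0.65 and was called (adjusted p 0.0286). Leaving out the lowest vehicle library widens this difference by itself, and no other fit gave that call. Within groups rbp2a was lower where lratb.2 was higher (Pearson r -0.63 over the deviations of 24 libraries) and went with lratb.1 (0.62). Vehicle libraries 1 and 2 weigh on both values. Among the vehicle libraries, library 1 was lowest in lratb.2 (2.71 FPKM) and highest in rbp2a and lratb.1. Library 2 was highest in lratb.2 (10.5 FPKM) and lowest in rbp2a and lratb.1. How far these correlations hold without them was not tested. The enterocyte marker list, whose most abundant gene in vehicle was apoa1a, summed to 995 to 1164 FPKM at 300 µg/L and to 1272 to 1379 at 30 µg/L, with 0 of its 9 markers at 0. Of the 9, apoa1a alone was called between these doses, lower at 300 µg/L at 369 against 557 FPKM (log2 difference -0.61, adjusted p 0.0250). The median log2 difference of the list was -0.05, with 3 of 9 above 0. Marker lists of other cell types had lower medians there. These were -0.13 for photoreceptor (0 of 9 above 0), -0.13 for retinal pigment epithelium (3 of 9), -0.10 for skin (1 of 7) and -0.07 for hepatocyte (2 of 8). Among these lists the skin marker krt4 alone was called, lower by -0.35 (adjusted p 0.0341). The part of any of these lists in the rbp2a values was not tested.

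**Figure D3:**
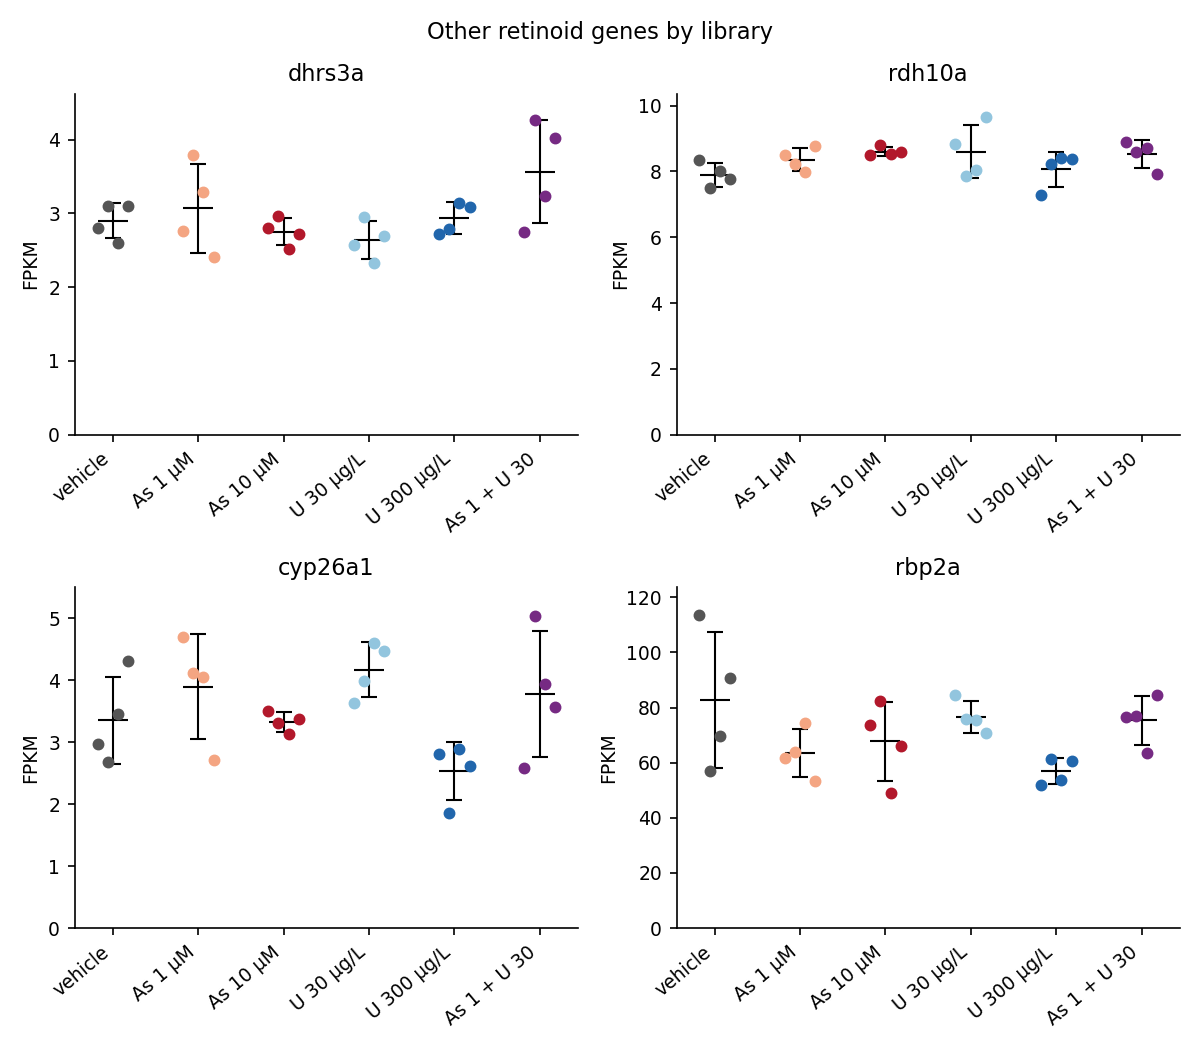
FPKM (vertical axes from 0, a separate scale per gene) of dhrs3a, rdh10a, cyp26a1 and rbp2a in each of the 24 libraries, by group. Points are libraries, lines are group means and bars are 1 SD (n = 4); the cyp26a1 libraries at 300 µg/L uranyl nitrate (1.85 to 2.88 FPKM) lie below all at 30 µg/L (3.63 to 4.60).

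Counted together, dhrs13a.2 and lratb.2 passed the calling threshold at 1 µM arsenite, both higher, where 0.132% of all genes tested passed it. For lratb.2 this only restates the difference for which it was picked. The same 2 were called at 10 µM, which shares the vehicle libraries, against 0.727% of all genes. At 30 µg/L uranyl nitrate 0 of 9 were called, as were 0% of all genes, although 1 of the 9 and 1620 of all genes had an unadjusted p under 0.05 in limma. At 300 µg/L 1 was called (dhrs13a.2, higher) against 1.77%, and in the mixture 1 (dhrs13a.2, higher) against 0.406%. Since the genes were selected on these comparisons, nothing is read from the counts.

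Between exposures, 0 of 9 were called for arsenite at 10 against 1 µM, where 0.176% of all genes were called. For uranyl nitrate at 300 against 30 µg/L, 2 were called (lratb.1 and cyp26a1, both lower) against 6.65%. For the mixture against arsenite alone 0 were called against 0.00441%. For the mixture against uranyl nitrate alone 1 was called (dhrs13a.2, higher) against 0.238%. The genes were selected on these same libraries, so nothing is read from these counts either. For the departure from additivity, where 0.0353% of all genes passed the threshold, lratb.2 was the 1 of the 9 that did, and nothing is read from this, since the contrast includes the difference for which it was picked.

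The median log2 difference of the 9 genes was close to 0 in each exposure against vehicle, at 0.07 for 1 µM arsenite, 0.00 for 10 µM, 0.11 for 30 µg/L uranyl nitrate, -0.08 for 300 µg/L, and 0.12 for the mixture. The medians over all genes were -0.01, 0.01, 0.00, -0.00 and -0.02. The step from 30 to 300 µg/L uranyl nitrate had a median of -0.27 over the 9 genes, with 2 of 9 above 0. Over all genes the median was -0.00, with 49.6% above 0. The 9 genes were selected on these same libraries, so this is a description only.

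**Figure D4:**
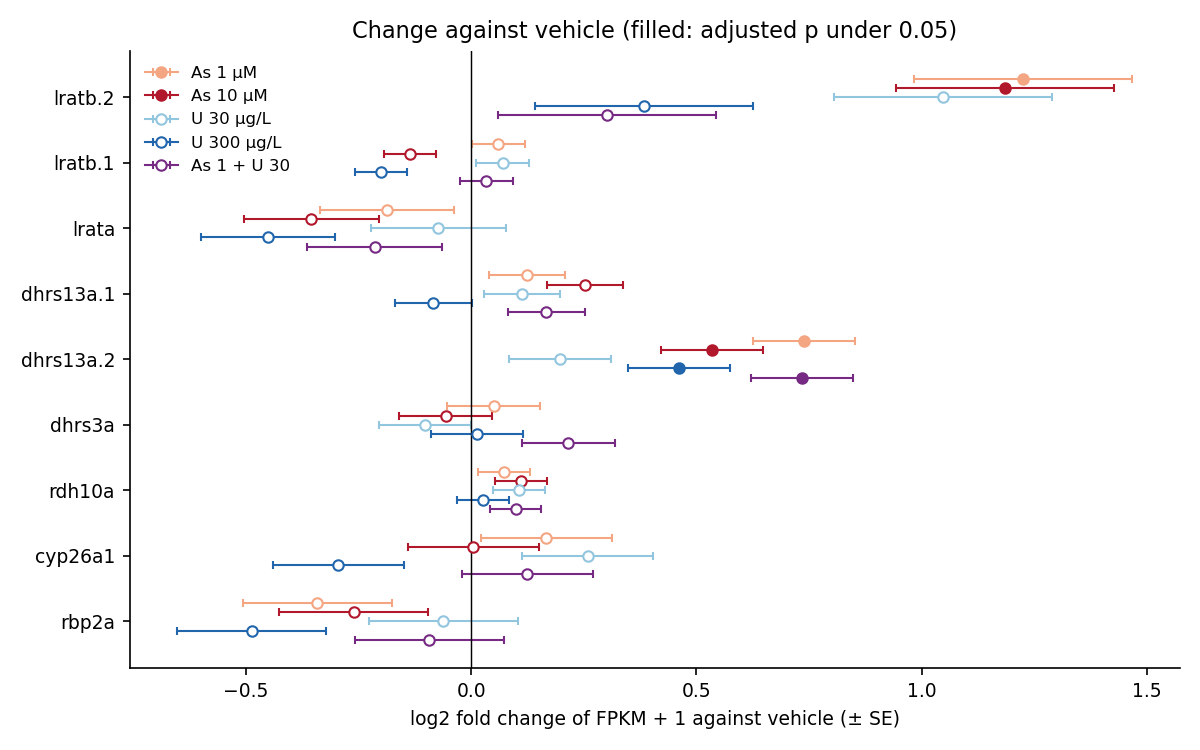
Log2 difference of FPKM + 1 from vehicle (horizontal axis) for the 9 genes in the 5 exposures. Points are limma estimates, bars are 1 SE and filled points have an adjusted p under 0.05, which for lratb.2 at 1 µM arsenite is no test since it was picked there; lratb.2 runs from 0.30 in the mixture to 1.23 at 1 µM arsenite, and dhrs13a.2 from 0.20 to 0.74.

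Over the 24 libraries the genes with a symbol most like lratb.2 by Pearson correlation of log2(FPKM + 1) were rgra (0.90), rpe65a (0.88), tm6sf2b (0.86), LOC100537455 (0.85) and rlbp1b (0.83). Of these, rpe65a encodes the isomerase that uses retinyl ester, rlbp1b encodes a cellular retinaldehyde-binding protein, and rgra encodes an opsin of the RGR type, all known from the visual cycle. rdh5, which encodes the 11-cis retinol dehydrogenase of that cycle, stood at 0.83 and was added after its value was seen. These points share libraries, depth and the group differences by which lratb.2 was picked. For the deviations from group means the 5 highest were actc1b (0.83), rgra (0.80), myom2a (0.78), lrfn2b (0.76) and ciz1b (0.76), where actc1b encodes a muscle actin and myom2a a myomesin.

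Of the visual cycle genes rgra, named for its likeness to lratb.2, had the full group order of lratb.2. Its means were 39.1 ± 4.51 FPKM at 1 µM arsenite, 37.0 ± 2.84 at 10 µM and 36.2 ± 1.38 at 30 µg/L uranyl nitrate. They were 33.1 ± 3.92 at 300 µg/L, 29.6 ± 2.67 in the mixture and 26.6 ± 6.62 in vehicle. rpe65a, rlbp1b and rdh5 had that order only in part. rgra, rpe65a, rlbp1b and rdh5 were called in none of the 10 comparisons in the fit over all 24 libraries. With only the compared groups fitted, rpe65a was called lower at 300 than at 30 µg/L uranyl nitrate (adjusted p 0.0191). rpe65a held 12.8, 38.6, 25.6 and 31.3 FPKM in the vehicle libraries, and its means were 27.1 ± 10.9 FPKM in vehicle, 51.6 ± 6.08 at 1 µM arsenite, 45.8 ± 5.04 at 10 µM, 34.55 ± 8.24 in the mixture, and 51.5 ± 3.38 and 36.7 ± 4.78 at the lower and higher uranyl nitrate dose. Its differences from vehicle at 1 µM arsenite (1.00, SE 0.218, adjusted p 0.0669) and at 30 µg/L uranyl nitrate (1.00, adjusted p 0.301) came from groups that did not overlap with vehicle. rlbp1b was at 8.27 ± 3.60 FPKM in vehicle and 17.1 ± 1.44 at 1 µM arsenite (log2 difference 1.04, adjusted p 0.0573). The departure from additivity was -1.59 for rpe65a (adjusted p 0.0615), -1.41 for rlbp1b (adjusted p 0.157) and -0.85 for rgra (adjusted p 0.0706), none of them called. These genes were named for following lratb.2 over the same libraries. Their differences and departures are therefore descriptions, as for lratb.2, and no test.

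Vehicle library 1 was the lowest and vehicle library 2 the highest of the 4 vehicle libraries in lratb.2, rgra, rpe65a, rlbp1b and rdh5 alike. Without vehicle library 2, rpe65a (1.198, adjusted p 0.0153), rlbp1b (1.27, adjusted p 0.00694) and rdh5 (1.13, adjusted p 0.0410) were called higher at 1 µM arsenite, as was rbp4l. Leaving out the highest vehicle library widens such a difference by itself. In no other fit were rpe65a, rlbp1b or rdh5 called at 1 µM arsenite, so nothing is read from these calls.

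**Figure D5:**
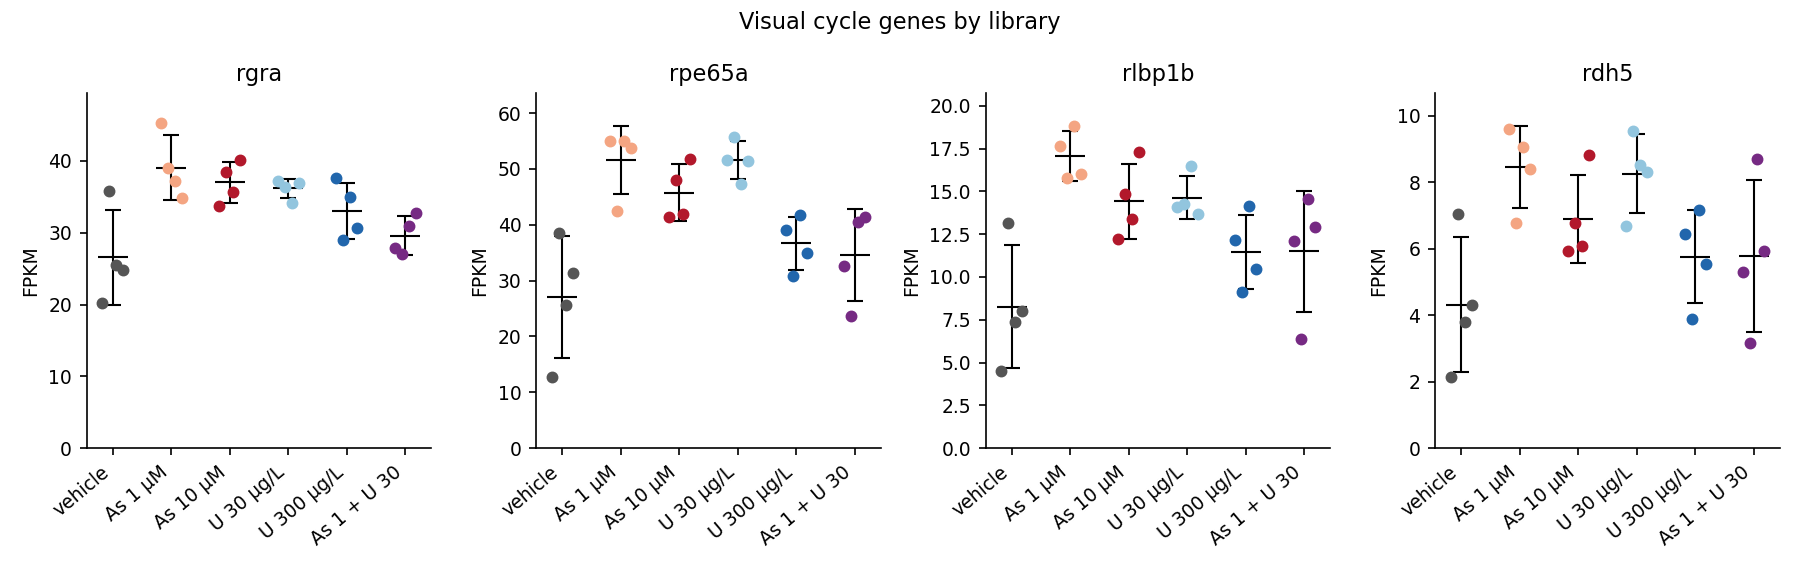
FPKM (vertical axes from 0, a separate scale per gene) of rgra, rpe65a, rlbp1b and rdh5 in each of the 24 libraries, by group. Points are libraries, lines are group means and bars are 1 SD (n = 4); 1 vehicle library, number 2, lies above the other 3 in each gene (35.9 FPKM for rgra, 38.6 for rpe65a).

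The list of 9 retinal pigment epithelium markers, of which rpe65a, rlbp1b, rgra and rgrb belong to the visual cycle, summed to 119 to 203 FPKM in vehicle, 207 to 248 at 1 µM arsenite, 196 to 233 at 10 µM, 204 to 219 at 30 µg/L uranyl nitrate, 175 to 212 at 300 µg/L, and 157 to 213 with both agents. None of the 9 was at 0 in a group, none was called against vehicle, and pmela was the most abundant. Over the 24 libraries the other markers of the list had a Pearson r with lratb.2 of 0.78 (rgrb), 0.55 (best1), 0.44 (dct), 0.05 (pmela), -0.10 (tyr) and -0.24 (stra6). Over deviations from the group means the pigment genes dct, pmela and tyr were at 0.57, 0.58 and 0.32, beside 0.65 for rlbp1b, 0.66 for rgrb and 0.75 for rpe65a, and stra6 was at -0.25. Vehicle libraries 1 and 2 weigh on these values too, at 11.9 and 20.2 FPKM for dct and 33.2 and 45.6 for pmela. The part of this marker list in the lratb.2 values was not tested.

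Some markers of other cell types were called in some of the exposures, while others of the same lists went the other way. In the enterocyte list 3 of 9 were called higher at 10 µM arsenite, where 0.727% of all genes were called in either direction (fabp2 by 0.67, anpepb.1 by 0.45 and vil1 by 0.44 on the log2 scale), and fabp2 was called higher in the mixture (0.60) and with the higher dose of uranyl nitrate (0.60). At 10 µM arsenite 6 of the 9 were above 0, and the list summed to 971 to 1257 FPKM against 1045 to 1287 in vehicle. In the mixture 5 of the 9 were above 0, and at 300 µg/L 4 were, with a list median of -0.02. In the photoreceptor list the cone arrestin gene arr3b was called higher at 1 µM (0.50) and 10 µM arsenite (0.65), with 5 and 7 of the 9 markers above 0. None of 8 hepatocyte and 7 skin markers was called against vehicle. Of the hepatocyte markers 0 of 8 were above 0 at 10 µM arsenite (list median -0.19) and at 300 µg/L uranyl nitrate (-0.16). At 1 µM arsenite 2 were above 0, at 30 µg/L 1, and in the mixture 4. The part of these markers in the dhrs13a.2 values was not tested.

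Beyond the 9 genes, a list of 83 retinoid symbols gave 77 genes in the table and 73 that were tested. Against vehicle 1 of the 73 was called, at 10 µM arsenite, where 0.727% of all genes were called, and 0 in the other 4 exposures, where 0% to 1.77% of all genes were called. An unadjusted p under 0.05 was found for 8 to 17 of the 73 in each exposure and for 1528 to 3754 of all 22682 genes. The called gene was rbp4l, a relative of the plasma retinol carrier gene rbp4, which rose from 198 ± 19.0 to 265 ± 18.4 FPKM (log2 difference 0.42, SE 0.0750, adjusted p 0.00472), with all 4 exposed libraries above all vehicle libraries. By role, 0 of 7 genes of ester formation, hydrolysis and isomerisation, 0 of 17 other retinol and retinal oxidoreductases, 0 of 6 genes of retinoic acid synthesis and breakdown, 1 of 17 binding and transport genes, 0 of 6 carotenoid genes, 0 of 10 retinoic acid and retinoid X receptors and 0 of 10 target genes were called at 10 µM arsenite.

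Between the doses of uranyl nitrate 4 of the 73 were called, a share below the 6.65% of all genes called there, so the count is not a result about the list. lpla, a lipoprotein lipase gene, was higher at 300 µg/L by 0.77 (adjusted p 0.00606), from 49.1 ± 5.97 to 84.1 ± 8.72 FPKM, and pnpla2, an adipose triglyceride lipase gene, by 0.59 (adjusted p 0.0306). dhrs13a.3, a further gene of the dhrs13a group, was higher by 0.17 (adjusted p 0.0465), and dgat1a, an acyltransferase gene, was lower by -0.24 (adjusted p 0.0243). Leaving out 1 library at a time kept the call of lpla in 8 of 8 fits, of dgat1a in 4, of pnpla2 in 3 and of dhrs13a.3 in 0. These 4 were named after their values were seen.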

How the data were processed

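RNA-seq was run on 24 pools of 10 larvae, grouped by their labels. The authors deposited 1 table of FPKM values for 39974 genes; the submitters' processing notes name HISAT2 2.1.0, HTSeq 0.6.1, DESeq2 1.10.1 and GRCz11, with no role or order. The annotation and the strand setting are not given in the sources used here, so reads of overlapping or near-identical genes may be shared. Symbols came from a RefSeq table of GRCz12tu (80.2% of gene numbers). FPKM steps gave back whole reads for 100.0% of values (tolerance 0.01).

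Genes with FPKM of at least 0.5 in at least 4 libraries were kept (22682). Differences of log2(FPKM + 1) were tested two-sided with limma 3.58.1 (R 4.3.3), using 6 group means over all 24 libraries, a variance trend and no block (18 residual degrees of freedom, median residual SD 0.138), with Benjamini-Hochberg adjustment within each of 10 comparisons. The fit was also run on simulated data with independent normal residuals, which it assumes itself, so that run says nothing about the calls here. Labels name biological replicates as separate pools of larvae; whether these came from separate spawnings is not given, and p-values measure only the spread between pools.

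The 9 genes, the retinoid list and the marker lists were chosen with earlier results of these data known. Named besides the 9 genes were list genes called against vehicle (at most 6 per exposure). The 5 genes most correlated with lratb.2 over libraries and over deviations from group means were named too. The most abundant gene was named for the enterocyte and retinal pigment epithelium lists. The latter list's other markers were given as the rest of it. All other genes, among them rdh20, were named after their values were seen. Alternatives were a pseudocount of 0.1, no filter, other scalings, fits of only the compared groups, no variance trend, a replicate block, and leaving out each library. No column was left unused (0 columns).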

Additional observations from a re-analysis of the deposited data

Results flagged for a closer look

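Among the 54 combinations of gene and group, 3 had 1 library set apart from the other 3 by a gap above Dixon's 95% critical share of the group's whole range, a rate that chance gives in about 1 in 20 groups. The lowest mixture library of dhrs13a.1, at 21.2 FPKM against 25.0 to 25.4 in the others, had a gap of 0.892 of the range. The highest library of dhrs13a.2 at 300 µg/L uranyl nitrate, 51.6 FPKM against 36.5 to 38.6, had a gap of 0.867, and without it the log2 difference from vehicle was 0.35 in place of 0.46 and lost its call (adjusted p 0.122). The lowest library of rdh10a at 300 µg/L, 7.28 FPKM against 8.23 to 8.40, had a gap of 0.844.

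The departure from additivity of lratb.2 was -1.97 on the log2 scale, and its estimate ran from -2.25 to -1.70 over the 16 fits without 1 library. It is a description, since it includes the 1 µM arsenite difference for which lratb.2 was picked, and the threshold was passed in 2 of those 16 fits.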

How the results depend on the processing

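Of the 9 genes, the number called at 1 µM arsenite (2) was 1 with no filter, 1 with no variance trend, 1 with the replicate block, 0 with only the groups compared, and 1 to 2 when 1 library was left out. At 10 µM (2) it was 0 with only the groups compared and 0 to 2 without 1 library. At 300 µg/L uranyl nitrate (1) it was 0 with no filter, with only the groups compared and with no trend, and 0 to 3 without 1 library. From 30 to 300 µg/L (2) it was 4 with only the groups compared (lratb.1, cyp26a1, lratb.2 and rbp2a) and 1 to 2 without 1 library. For the mixture against uranyl nitrate (1) it was 0 with no filter, equal totals, only the groups compared, no trend, the replicate block and every left-out library (0 to 0). For the departure from additivity (1) it was 0 with no filter, median-of-ratios scaling, only the groups compared, no trend and the replicate block, and 0 to 1 without 1 library.

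Of the 73 other retinoid genes, 1 was called at 1 µM arsenite (0) with equal totals and 1 with the replicate block (rbp4l in both), and 0 to 4 without 1 library. At 10 µM (1) the number was 0 with only the groups compared and 1 to 3 without 1 library, and at 300 µg/L (0) it was 1 with a pseudocount of 0.1 (rdh20) and 0 to 3 without 1 library. The causes were not tested.

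Same-numbered libraries did not deviate together (correlations of deviations from -0.155 to 0.107), so the replicate block is given for these counts only. Near-0 differences changed sign for dhrs13a.2 between the mixture and 1 µM arsenite (0.0071 under median-of-ratios scaling; -0.081 to 0.071 without 1 library) and for lratb.2 between the arsenite doses (-0.15 to 0.093 without 1 library). Depth limits lrata, at 10 to 83 reads, most.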

Other observations

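The genes with a symbol that followed dhrs13a.2 most closely over the 24 libraries, named after their values were seen, were foxg1b (Pearson r 0.84), arrdc3b (0.81), si:rp71-46j2.7 (0.78), f2rl1.2 (0.77) and tsc22d3 (0.77). foxg1b encodes a forkhead transcription factor, arrdc3b an arrestin-domain protein, and tsc22d3 the zebrafish counterpart of the glucocorticoid-induced leucine zipper gene. Its neighbour dhrs13a.1 stood at 0.48, with 502 genes above it when dhrs13a.2 itself is counted, and lratb.2 at 0.31. These points share libraries, depth and the group differences.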
